A study of Mus musculus with 6 samples.

Results

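The genes described here encode the receptor chains of the common gamma chain cytokines: Il7r, Il2ra, Il2rb, Il2rg, Il4ra, Il9r, Il15ra and Il21r. They were taken by gene symbol, and all 8 were found among the 23306 genes of the deposited table. All 8 also passed the filter on low values that left 17993 genes for testing. PolyA RNA was sequenced from tumour of the bone marrow of C57BL/6 mice with an isogenic T-ALL (T-cell acute lymphoblastic leukaemia). There were 3 libraries with wild-type Phf6 and 3 in which Phf6, the gene of a nuclear PHD finger protein recurrently mutated in human T-ALL, had been deleted by a tamoxifen-inducible Cre recombinase. Tamoxifen or its corn oil vehicle was injected intraperitoneally, and the labels do not state which library had which, so drug and deletion cannot be told apart. The sources used here do not give the promoter driving Cre, how the leukaemia arose or whether each library is a different mouse. The p-values therefore measure the spread between these samples, which may be technical, and all libraries represent leukaemia of 1 isogenic background.

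The family takes its name from the common gamma chain, encoded by Il2rg, which is shared by the receptors for interleukins 2, 4, 7, 9, 15 and 21. Each cytokine is recognised with the help of its own alpha chain, and IL-2 and IL-15 share the beta chain Il2rb as well. The chains carry no kinase activity of their own. The Janus kinase JAK3 binds the gamma chain and JAK1 binds the partner chains, and together they phosphorylate STAT factors, mainly STAT5 for IL-2, IL-7, IL-9 and IL-15, STAT6 for IL-4 and STAT3 for IL-21. IL-7 signalling is needed for early thymocytes to survive, Il2ra (CD25) marks immature double-negative thymocytes, and activating mutations of the IL-7 receptor and JAK3 occur in human T-ALL.

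Where 3 values are given for a group, they are those of libraries 1, 2 and 3 in that order. Libraries held 46067511 to 54953145 reads assigned to genes, and each receptor gene had between 211 and 13315 reads per library. Normalised read counts of Phf6 were 5508, 4240 and 5075 in wild type against 1781, 2337 and 1755 in knockout (limma log2 fold change -1.34, adjusted p = 0.00184). Of 13 T-lineage markers in the table, none was at 0 in any library, and their sum was 5478 to 5936 CPM (counts scaled to the depth of the library) in wild type and 5029 to 6092 in knockout. Markers of other marrow cells were also present. The 16 neutrophil markers summed to 124 to 461 CPM in wild type and 1068 to 1363 in knockout, and 14 monocyte and macrophage markers to 43.3 to 95.1 and 163 to 281 CPM. The 12 B-cell markers summed to 331 to 426 CPM in wild type and 244 to 327 in knockout, nearly all of it Ighm, at 10831 to 20861 reads. Without Ighm, a choice made after the values were seen, the sums went the other way, from 5.64 to 7.57 CPM in wild type and from 13.7 to 22.2 in knockout, with Ms4a1 and Ebf1 at 0 in wild-type library 3. Of tested markers, 8 of 16 neutrophil, 6 of 14 monocyte and macrophage, 7 of 10 B-cell, 2 of 6 dendritic and 2 of 3 mast cell, basophil and eosinophil genes rose. Ighm fell, as did 1 dendritic marker, Bst2, and 1 stromal marker, Col1a1. By limma, 5.32% of all tested genes rose and 3.43% fell. Erythroid markers summed to 4.86 to 9.45 and 6.32 to 14.1 CPM, dendritic markers to 26.1 to 27.6 and 32.4 to 37.5 CPM (Siglech at 0 in 2 wild-type libraries), and stromal and endothelial markers to 490 to 581 and 666 to 858 CPM (Col3a1 at 0 in wild-type library 2), in wild type and knockout. Most of the stromal sum was Col1a2, at 20797 reads on average in wild type and 29110 in knockout, while Col1a1 fell from 117 to 51.1 reads. The part of these cells in the values below was not tested. In bulk RNA, fewer cells of a type and less RNA per cell cannot be told apart.

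The shared chain and the chains of the IL-2 and IL-9 receptors were abundant in this leukaemia, and the IL-4 and IL-15 alpha chains were scarce. Levels are compared between genes as normalised reads per kb of annotated exon. On that scale Il2rg stood at 2640 ± 205 (SD, n = 3) in wild type, above 94.1% of tested genes when averaged over all libraries. It was followed by Il2ra at 2020 ± 315, Il9r at 1451 ± 130 and Il2rb at 1288 ± 189. Il7r came next at 491 ± 116 and Il21r at 298 ± 35.0, while Il15ra at 76.9 ± 7.10 and Il4ra at 73.8 ± 9.95 were below most tested genes. The wild-type libraries of neighbours in this order did not overlap, except for Il9r with Il2rb and Il15ra with Il4ra. The order in the knockout group was the same for the first 6 genes. There, however, the libraries of Il2ra (1274 ± 174), Il9r (1177 ± 163), Il2rb (1035 ± 117) and Il7r (818 ± 366) overlapped from each gene to the next.

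A single chain passed the test across all genes, the IL-2 receptor alpha chain, which was lower in knockout. Of the 8 genes, 1 fell and none rose by limma with Benjamini-Hochberg adjustment over all genes, where 8.75% of tested genes were called, 5.32% higher and 3.43% lower. edgeR, which called 8.16% of all genes, and DESeq2, which called 11.2%, also called Il2ra and no other receptor gene. By fitted log2 fold change 7 genes were negative and 1, Il7r, positive, and the median was -0.26 beside -0.01 over all tested genes. Knockout libraries lay below all wild-type libraries for 3 genes, Il2ra, Il2rb and Il2rg, and above them for none. Of all tested genes 31.2% were separated in this way, 16.2% with knockout below and 15.0% with knockout above. A single call among 8 genes is near the share over all genes and is not read as a result about the family.

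**Figure D1:**
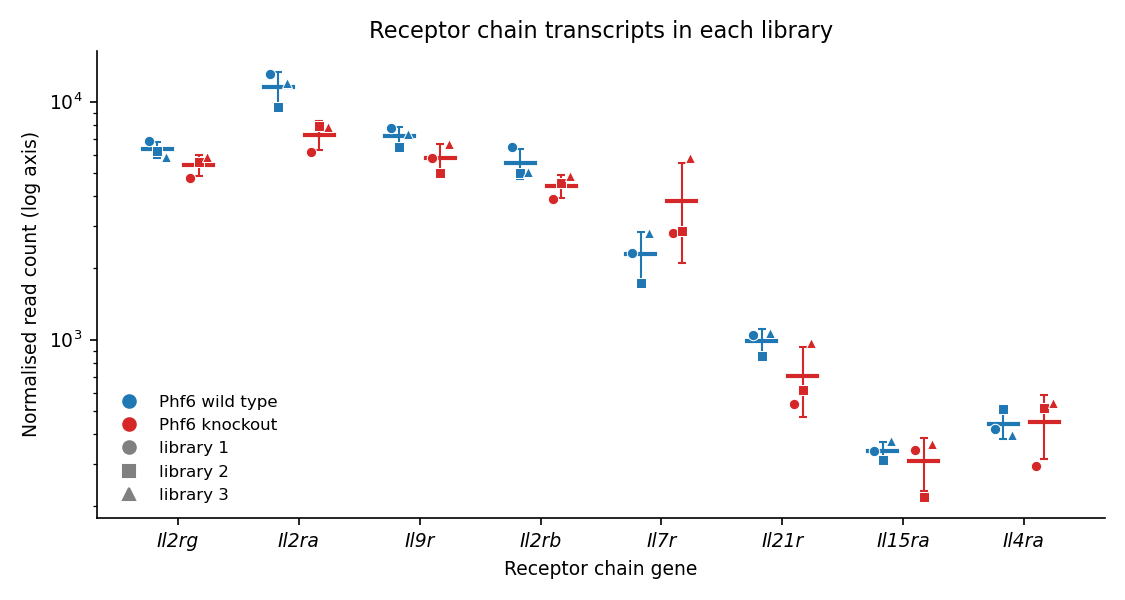
Normalised read counts of the 8 receptor chain genes on a log axis, ordered by wild-type level per kb of exon. Blue and red symbols are the 3 wild-type and 3 knockout libraries, the marker shape gives the library number, and bars with error bars are group means and SD. Il2ra shows the widest gap between separated groups (9544 and above against 7873 and below), and knockout library 3 stands high for Il7r at 5788.

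Il2ra (ENSMUSG00000026770; GRCm38 chromosome 2, 11642807 to 11693193, plus strand, protein coding) encodes the alpha chain that raises the affinity of the IL-2 receptor. Its normalised read counts were 13038, 9544 and 12034 in wild type against 6126, 7873 and 7828 in knockout. Every knockout library was below every wild-type library, with wild-type library 2 the lowest of its group. The means were 11538 ± 1799 and 7276 ± 996 (SD, n = 3 each), a ratio of 0.631. The log2 fold change was -0.66 ± 0.14 (SE; 95% interval -0.97 to -0.35; limma adjusted p = 0.0212), and the adjusted p was 0.0247 in edgeR and 0.000229 in DESeq2. The call was lost when any of 4 libraries was left out: limma's adjusted p was 0.0864 without wild-type library 1, 0.0679 without wild-type library 3, 0.0501 without knockout library 1 and 0.0829 without knockout library 3, with log2 fold changes of -0.57, -0.63, -0.54 and -0.72. The T-lineage markers had a median log2 fold change of -0.22, and 2 of 13 fell, beside 3.43% of all tested genes. The annotation places Gm37881, a model still to be tested experimentally, over Il2ra on the same strand, and how shared reads were counted is not known.

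The 250 bases upstream of the RefSeq start are shown for Il2ra and Il7r, the gene that fell and the gene with the opposite sign. Capitals mark matches, on either strand, to any of 6 motifs. STAT factors were searched as TTCNNNGAA, RUNX factors as TGTGGT and GATA factors as AGATAA. The Notch partner RBPJ was searched as TGGGAA, forkhead factors (FOXO) as GTAAACA and ETS factors as GGAAGT. The windows are chr2:11642542-11642791 (plus strand) and chr15:9529877-9530126 (minus strand) on GRCm38.p6, printed 5′ to 3′ along the gene.
Il2ra: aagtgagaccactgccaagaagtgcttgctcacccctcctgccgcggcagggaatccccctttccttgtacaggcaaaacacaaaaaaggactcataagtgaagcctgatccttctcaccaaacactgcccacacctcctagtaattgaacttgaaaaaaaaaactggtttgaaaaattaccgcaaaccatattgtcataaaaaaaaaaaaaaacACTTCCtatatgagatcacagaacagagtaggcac
Il7r: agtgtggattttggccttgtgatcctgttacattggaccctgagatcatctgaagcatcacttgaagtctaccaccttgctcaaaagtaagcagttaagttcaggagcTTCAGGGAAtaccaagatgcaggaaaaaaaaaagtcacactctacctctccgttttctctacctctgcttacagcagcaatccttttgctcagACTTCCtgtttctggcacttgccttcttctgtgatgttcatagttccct

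The Il2ra window held 1 match, to the ETS letters on the opposite strand, 35 to 30 bases before the start. The Il7r window held an ETS match 49 to 44 bases before the start, also on the opposite strand, and a STAT match 142 to 134 bases before it. By the gene positions used in this report Il7r starts further upstream, at 9530176 on the minus strand. The Il7r window and its matches therefore lie inside the gene as annotated there. No matches overlapped in these windows. Over all 32851 RefSeq windows of this length, 19.7% had an ETS match and 7.02% a STAT match. Windows were found for 7 of the 8 genes, with 2 windows for Il15ra and none for Il2rb. Il2rg, Il9r and Il21r each had a RUNX match (14.0% of all windows), Il9r had 2 GATA matches (windows with at least 1: 9.99%), Il2rg an RBPJ match (21.6%) and Il21r a FOXO match (3.17%). In Il21r the FOXO and RUNX matches overlapped. The Il4ra and Il15ra windows held none of the 6. These matches describe letters and do not show binding.

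Il7r (ENSMUSG00000003882; chromosome 15, 9505788 to 9530176, minus strand, protein coding) encodes the alpha chain for IL-7, which also serves the receptor for the related cytokine TSLP. It had 2318, 1736 and 2821 normalised reads in wild type against 2804, 2855 and 5788 in knockout. The groups overlapped, since wild-type library 3 was above knockout library 1, and knockout library 3 was the highest of all. The fitted log2 fold change was 0.68 ± 0.35 (SE; 95% interval -0.20 to 1.55), which did not pass (limma adjusted p = 0.304). It was 0.33 without knockout library 3. The SD was 44.8% of the mean in the knockout group, the widest of the 8 genes, and 23.7% in wild type. B-cell precursors also use this receptor. The B-cell markers without Ighm summed to 5.64 to 7.57 CPM in wild type and to 13.7, 22.2 and 20.2 CPM in knockout. The part of such cells in the Il7r values was not tested.

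Il7r and Il2ra therefore stood in different proportion in the libraries. As levels per kb, Il7r over Il2ra was 0.218, 0.223 and 0.287 in wild type against 0.561, 0.444 and 0.906 in knockout. The groups did not overlap. This ratio was chosen after the values were seen and is given without a test. Of the summed level per kb of the 8 genes, Il7r made up 4.95% to 7.27% in wild type and 9.09% to 15.5% in knockout, and Il2ra 22.2% to 25.3% and 17.1% to 20.5%. Il2rg held 29.6% to 34.4% in wild type and 30.7% to 34.8% in knockout.

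**Figure D2:**
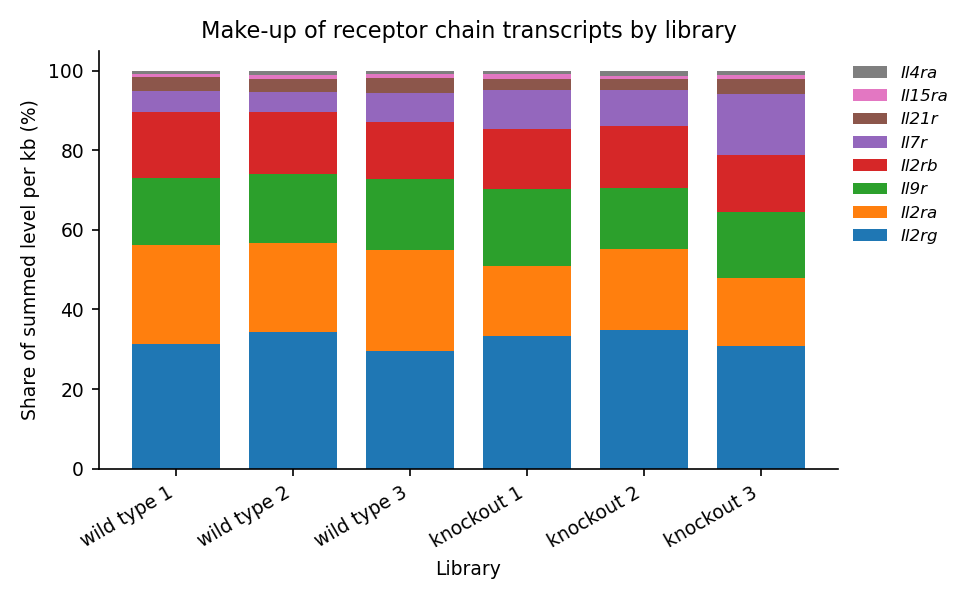
Share of each receptor chain gene in the summed level per kb of exon of the 8 genes, as stacked bars for each library. Il7r widens from at most 7.27% in wild-type libraries to at least 9.09% in knockout libraries, and Il2ra narrows from at least 22.2% to at most 20.5%, while the Il2rg shares of the groups overlap (29.6% to 34.4% and 30.7% to 34.8%). A share also depends on the other genes. The Il7r counts themselves overlapped between groups and did not pass (limma adjusted p = 0.304).

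The signalling chains of the IL-2 and IL-15 receptors had smaller differences. Il2rb (ENSMUSG00000068227; chromosome 15, 78479256 to 78495271, minus strand), the beta chain of both receptors, had 6459, 5035 and 5077 reads in wild type against 3887, 4549 and 4872 in knockout. The groups did not overlap, but knockout library 3 came close to wild-type libraries 2 and 3. Its log2 fold change was -0.31 ± 0.12 (SE; 95% interval -0.58 to -0.04; limma adjusted p = 0.140). Il2rg (ENSMUSG00000031304; chromosome X, 101264378 to 101268255, minus strand), the common gamma chain, had 6839, 6185 and 5884 reads in wild type and 4802, 5598 and 5867 in knockout. Again no knockout value reached the lowest wild-type value, although wild-type library 3 and knockout library 3 were nearly equal. Its log2 fold change was -0.22 ± 0.10 (SE; limma adjusted p = 0.199), with a 95% interval of -0.44 to 0.0005. Neither gene passed the test. Natural killer and innate lymphoid cells also carry both chains, and 7 of their markers summed to 392 to 419 CPM in wild type and 351 to 402 CPM in knockout. Nearly all of this was Gzma, at 16417 to 20885 reads, whereas Klrd1 averaged 60.3 reads in wild type and 134 in knockout and Nkg7 44.1 and 96.9. Of the 6 tested, limma called none, edgeR called Klrd1 and DESeq2 called Klrd1 and Nkg7, both as higher in knockout. In limma 3 had an unadjusted p under 0.05. Of these, Klrd1 and Nkg7 were higher in knockout and Gzma was lower (log2 fold change -0.23). The part of such cells was not tested. Gm20489 overlaps Il2rg on the same strand, and how shared reads were counted is not known here.

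Relative to these chains Il2ra was lower in knockout. Per kb, Il2ra over Il2rb was 1.52, 1.42 and 1.78 in wild type against 1.18, 1.30 and 1.21 in knockout, without overlap. Il2ra over Il2rg was 0.797, 0.645 and 0.855 in wild type against 0.533, 0.588 and 0.558 in knockout, also without overlap. Il2rb over Il2rg was 0.526, 0.453 and 0.481 in wild type and 0.451, 0.452 and 0.462 in knockout, and here the groups overlapped. These ratios were chosen after the values were seen and carry no test.

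Il15ra (ENSMUSG00000023206; chromosome 2, 11705290 to 11734317, plus strand), which holds IL-15 and presents it to Il2rb and Il2rg on other cells, starts 12.1 kb beyond the end of Il2ra with no protein-coding gene between them. Its counts were 340, 311 and 374 in wild type and 343, 219 and 364 in knockout, so the groups overlapped and knockout library 2 was lowest. The log2 fold change was -0.18 ± 0.20 (SE; 95% interval -0.62 to 0.27; limma adjusted p = 0.634), and it was 0.05 without knockout library 2. Neutrophils and macrophages can also make this chain. The neutrophil sum and the pooled monocyte and macrophage sum were higher in knockout, as given above. Of the 14 pooled genes 9 were higher in every knockout library, while C1qa, C1qb, C1qc, Mrc1 and Cd14 overlapped between groups. The part of such cells in the Il15ra values was not tested.

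Il9r (ENSMUSG00000020279; chromosome 11, 32187541 to 32200279, minus strand), the alpha chain for IL-9, was among the more abundant chains. It had 7720, 6469 and 7343 reads in wild type against 5792, 5031 and 6640 in knockout. Knockout library 3 was above wild-type library 2, so the groups overlapped. The log2 fold change was -0.31 ± 0.11 (SE; 95% interval -0.56 to -0.06) and did not pass (limma adjusted p = 0.122). IL-9 is best known as a growth factor of T cells and mast cells. Of 9 mast cell, basophil and eosinophil markers 6 were in the table, with sums of 5.06 to 11.0 CPM in wild type and 10.5 to 31.2 CPM in knockout, and Mcpt8, Ms4a2 and Prss34 were each at 0 in 1 wild-type library. These ranges overlapped, and the part of such cells in the Il9r values was not tested.

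Il21r and Il4ra lie 24.0 kb apart on chromosome 7 with no protein-coding gene between them. Il21r (ENSMUSG00000030745; 125603429 to 125633570, plus strand), the chain that binds IL-21, had 1049, 855 and 1064 reads in wild type and 535, 613 and 965 in knockout. Knockout libraries 1 and 2 were below all wild-type libraries, and knockout library 3 was within the wild-type range. Its log2 fold change was -0.53 ± 0.21 (SE; 95% interval -1.01 to -0.05; limma adjusted p = 0.158). Without knockout library 3 it was -0.78 and passed (limma adjusted p = 0.0487), whereas Il2ra did not. Il4ra (ENSMUSG00000030748; 125552120 to 125579474, plus strand), the alpha chain for IL-4 and IL-13, had 420, 511 and 398 reads in wild type and 295, 518 and 540 in knockout. The groups overlapped throughout, with knockout library 1 the lowest and knockout library 3 the highest. The log2 fold change was -0.02 ± 0.23 (SE; limma adjusted p = 0.975), and its 95% interval of -0.53 to 0.50 leaves room for differences of that size in either direction. Gm44876 overlaps Il4ra on the opposite strand, and whether counting used strand is not known. Il4ra is widely expressed in myeloid cells, and their part in its values was not tested.

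**Figure D3:**
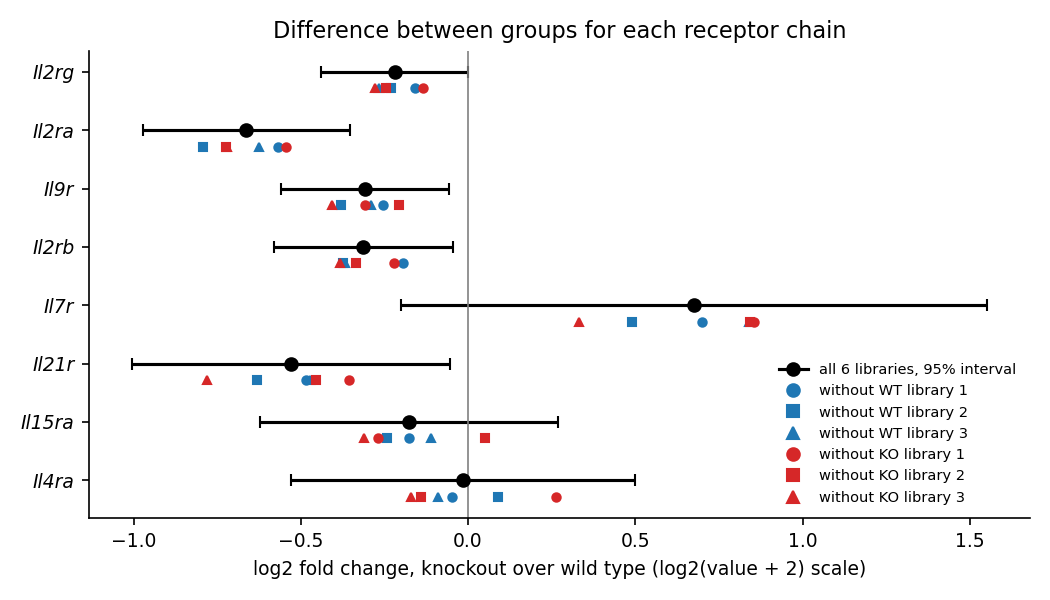
Log2 fold change, knockout over wild type, of each receptor chain gene on the log2(value + 2) scale. Black points with bars are the limma estimates from all 6 libraries with 95% intervals, and coloured symbols below them are the estimates with 1 library left out. Il2ra stays between -0.79 and -0.54, Il7r moves between 0.33 and 0.85, and Il4ra and Il15ra cross 0.

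Receptor partners outside the family included 1 gene near the threshold. Crlf2, which pairs with Il7r to form the TSLP receptor, had 1234, 1697 and 1351 reads in wild type and 1628, 1679 and 1727 in knockout (log2 fold change 0.25 ± 0.12 SE; limma adjusted p = 0.237). Il13ra1, which pairs with Il4ra to bind IL-4 or IL-13 mainly on non-lymphoid cells, was scarce. Its counts were 20.0, 42.5 and 13.6 in wild type against 44.9, 123 and 156 in knockout, and all knockout values were above all wild-type values. The log2 fold change of 1.97 ± 0.53 (SE) did not pass in limma (adjusted p = 0.0610) or edgeR (0.0589) and was called by DESeq2 (adjusted p = 0.000302). Monocyte and macrophage marker sums, at 163, 281 and 242 CPM in knockout, were above every wild-type sum (at most 95.1 CPM), and their part in the Il13ra1 values was not tested. Of 3 tested genes among these partners and their ligands, none passed in limma or edgeR, 1 had an unadjusted p under 0.05 and 1 was called by DESeq2.

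Transcripts of the cytokines themselves were scarce. Il2 had 12.7 to 16.8 normalised reads in wild type and 15.0 to 22.9 in knockout, and Il4 19.0 to 27.0 and 23.1 to 35.5. Neither passed in limma, edgeR or DESeq2, and neither had an unadjusted p under 0.05. Il21 had at most 9.03 reads and Il15 at most 10.4 in any library, too few to be tested. Il7 and Il9 are not analysed here.

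Among Janus kinases and STAT factors 1 of 10 tested genes, Stat6, fell and none rose. Of all tested genes limma called 3.43% lower and 5.32% higher, so this count is not read as a result about the list. Stat6, the factor of IL-4 signalling, had 10317, 8656 and 9260 reads in wild type against 7051, 7431 and 7310 in knockout, with no overlap (log2 fold change -0.37 ± 0.09 SE; limma adjusted p = 0.0279). The STAT5 genes had log2 fold changes of -0.15 (Stat5a) and -0.09 (Stat5b), and Jak1 had -0.20, none of which passed. Jak3, the kinase of the gamma chain, had 4673, 3661 and 3996 reads in wild type and 4015, 4349 and 6490 in knockout. The groups overlapped, and its log2 fold change of 0.24 ± 0.18 (SE) did not pass (limma adjusted p = 0.458). Its highest value was in the library highest for Il7r, and a link between these genes was not tested.

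Of 16 negative regulators of cytokine signalling 2 fell and none rose, where limma called 3.43% of all tested genes lower and 5.32% higher. Ptpn6, the phosphatase SHP-1, had 16535, 14233 and 16187 reads in wild type and 11796, 11261 and 12432 in knockout (log2 fold change -0.40 ± 0.09 SE; limma adjusted p = 0.0219). Dok2, a docking protein that restrains receptor signalling in haematopoietic cells, fell from 3157 ± 225 to 2306 ± 173 reads (-0.45). Among 19 adaptors and kinases 2 rose and none fell. With lists this short, neither count is read as a result about its list. Irs1, the insulin receptor substrate that IL-4 signalling also uses, rose from 845 ± 136 to 1894 ± 175 reads, with every knockout library above every wild-type library (1.17 ± 0.13 SE; limma adjusted p = 0.00265). Gab2, an adaptor between cytokine receptors and PI3 kinase, rose from 84.7 ± 13.3 to 248 ± 75.8 reads (1.49). Gab2 is also made in myeloid cells, and their part in the rise was not tested.

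Of 20 transcription factors known to act on Il7r or Il2ra, or on early T-cell identity, 4 fell and 1 rose. Of all tested genes limma called 3.43% lower and 5.32% higher, and this list was chosen with earlier results of these data known. Runx1, a factor of Il7r and other T-lineage genes, had 12030, 10697 and 10740 reads in wild type and 9184, 6836 and 7072 in knockout (log2 fold change -0.55 ± 0.12 SE; limma adjusted p = 0.0213). Ets1, a lymphoid ETS factor, fell by 0.44 on the log2 scale, the forkhead factor gene Foxo3 by 0.40 and Tcf7, a factor of early T-cell development, by 0.49. Spi1, which encodes the myeloid and early progenitor factor PU.1, rose from 142 ± 81.4 to 641 ± 89.2 reads (2.29 ± 0.34 SE; limma adjusted p = 0.00964), and its rise went with the neutrophil and monocyte marker sums. Foxo1, a direct activator of Il7r in T cells, had a log2 fold change of -0.04 and Notch1 one of -0.01, and neither passed.

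Of 18 genes that respond to IL-7 and STAT5 none was called by the main test, and many were highest in library 2 of both groups. None passed in limma or edgeR, 3 had an unadjusted p under 0.05, and DESeq2 called 1, the cyclin gene Ccnd2 (adjusted p = 0.00100; limma log2 fold change -0.79, adjusted p = 0.0744). The most abundant were Mcl1, a survival gene of the BCL2 family, at 13081 to 20020 reads in wild type and 13987 to 20721 in knockout, and Id2, an inhibitor of DNA binding, at 8148 to 20015 and 11255 to 18329. For both, the highest value in each group was in library 2. This held for 11 of the 18 genes, while 20.9% of all tested genes were highest in library 2 of both groups. It also held for 7 of the 16 negative regulators: Socs1, Socs2, Socs3 and Cish, which are in both lists, and Ptpn2, Dok1 and Pias1. The pattern is not read as particular to IL-7 and STAT5 response genes. Cish, a feedback inhibitor induced by STAT5, had the largest ratio of library 2 to the others in both groups, with 113, 462 and 46.1 reads in wild type against 94.9, 642 and 198 in knockout. Myc was lowest in the same libraries, at 7029 in wild-type library 2 and 6196 in knockout library 2, against at least 12003 in the others. Cish, Myc and Ccnd2 were chosen for mention after their values were seen.

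Of the 8 receptor genes none was highest in library 2 of both groups, and 2, Il9r and Il15ra, were lowest there in both, as were 18.7% of all tested genes. With 8 genes, neither count is read as a difference from other genes. Il7r in library 2 was 0.676 times the mean of libraries 1 and 3 in wild type and 0.665 times in knockout. With the number-2 libraries of both groups left out, Il2ra had a log2 fold change of -0.85 (limma adjusted p = 0.00186), and it was again the single receptor gene called. The labels give no batch for these libraries, and the cause of their difference was not tested.

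**Figure D4:**
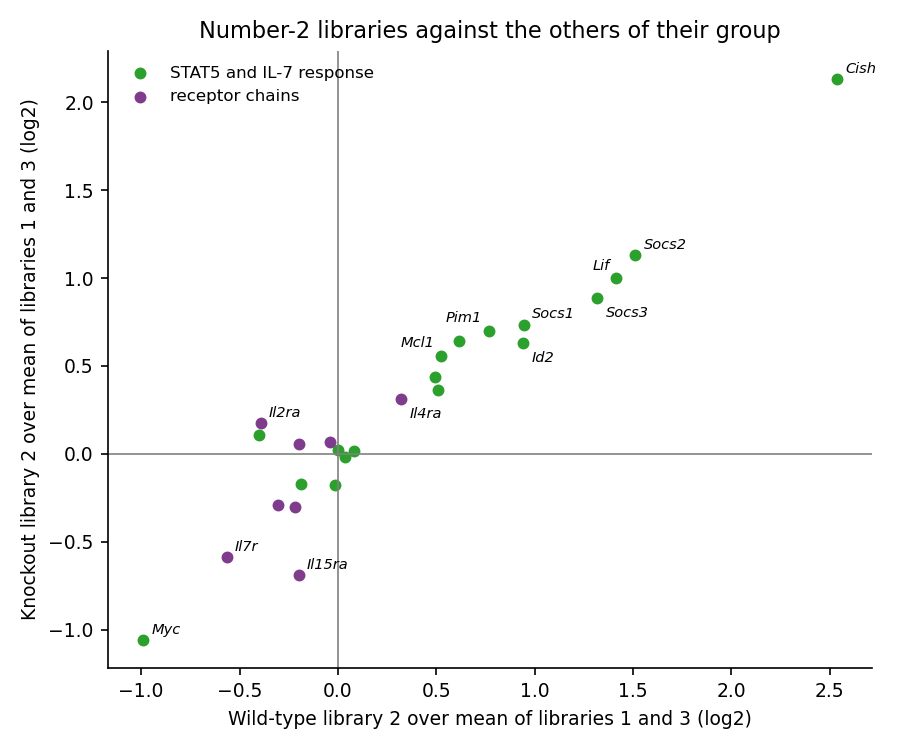
Log2 ratio of library 2 to the mean of libraries 1 and 3 of the same group, wild type on the horizontal axis and knockout on the vertical axis, for 18 STAT5 and IL-7 response genes (green) and 8 receptor chain genes (purple). Cish lies farthest out, at 5.81 times the other wild-type libraries and 4.39 times the other knockout libraries, and Myc lies at the opposite end at 0.504 and 0.480 times.

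Across the 6 libraries, Il2ra varied most like its signalling partners among the receptor genes. Pearson's r of log2 values was 0.90 with Il2rb, 0.86 with Il2rg, 0.84 with Il21r and 0.78 with Il9r, and -0.35 with Il7r. Among 10551 genes with a mean of at least 100 reads, those most like Il2ra were the transporter gene Slc5a3 (r = 0.995), the transcription factor gene Nfkb1 (0.994) and the phosphatase gene Ptprc, CD45 (0.992). For Il7r they included Ino80dos (0.991) and Sfmbt2 (0.988). These values come from 6 libraries that share the group difference, and r was above 0.9 for 446 genes with Il2ra and 187 with Il7r, so a high r was common.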

How the data were processed

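The authors deposited 1 table of normalised gene signal for 6 libraries. Its values proved to be gene counts that a single factor per library had scaled: dividing by each library's step gave whole reads for 100% of values within a tolerance of 0.01. In wild-type library 1 and knockout library 3 the steps, 1.00097 and 1.00293, are so near 1 that this check is weaker there. The tools named are STAR 2.6.0a, bcl2fastq 1.8.4, DESeq2 and featureCounts, with GRCm38, per the submitters' processing notes. Annotation, strand setting and treatment of multiply mapped reads: not given in the sources used here. Of 23314 rows, 8 without an identifier (at most 0.00106% of reads) were left out. Replicate counts differed by 11.9 to 51.7 chi-square units per degree of freedom, so none is the same library deposited again. This says nothing of separate preparations from 1 sample.

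Groups were compared by limma 3.58.1 under R 4.3.3, with trend and robust moderation, on log2(value + 2). Genes had to reach 10 in 3 or more libraries, and the Benjamini-Hochberg adjustment covered every gene tested (threshold 0.05). Fold changes on this scale understate those of low genes. edgeR 4.0.16 called 1469 genes and DESeq2 1.42.0 called 2155 on the recovered reads, against 1575 by limma. The scripts were tested on simulated counts. Positions and exon lengths came from GENCODE M21 (23277 of 23306 identifiers matched), upstream sequences from RefSeq (GRCm38.p6). Figures used matplotlib 3.10.9.

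The receptor genes and lists were chosen with earlier results of these data known. Named genes were all receptor genes, list members called, otherwise the 2 most abundant of a list, and for Il7r and Il2ra the 3 genes of highest correlation. A gene that this rule names is not reported here. Jak1, Jak3, Stat5a, Stat5b, Foxo1 and Notch1 lie outside this rule and were chosen after their values were seen. Alternatives covered scaling, pseudocount, filter, tool, a replicate block and each library left out.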

Additional observations from a re-analysis of the deposited data

How the results depend on the processing

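Of 17 alternatives, 16 were planned and the one leaving out library 2 of each group was added after the data were seen. The number of receptor genes called, 1 in the main analysis, was 0 to 1 with each library left out and 1 under every other alternative except the replicate block. Over all genes, 1575 were called, 253 to 1941 with a library left out (253 if that was knockout library 3, 986 if knockout library 2, and 465 or 665 if it was library 1 or 3 of wild type) and 2568 with the replicate block. With that block 4 receptor genes were called: Il2ra, Il7r (0.68, limma adjusted p = 0.00901), Il9r (-0.31, 0.0317) and Il21r (-0.53, 0.0372). Same-numbered libraries did not deviate together in every pair (r = 0.01, 0.50 and 0.14 for numbers 1 to 3), and wild-type library 1 correlated best with knockout library 3, so the numbers were not taken as pairs, although number 2 had the highest r of any pair. With a library left out, log2 fold changes ran from -0.79 to -0.54 for Il2ra, -0.78 to -0.36 for Il21r, -0.31 to 0.052 for Il15ra (the latter without knockout library 2) and -0.17 to 0.26 for Il4ra. Il4ra was also positive with upper-quartile scaling (0.019), library totals (0.068), edgeR (0.048) and DESeq2 (0.027). Il2ra stayed called under all scalings, pseudocounts, filters and tools tried (adjusted p 0.000229 to 0.0429, leaving out libraries and the block aside). With library totals as scaling 1217 of all genes rose and 300 fell, against 957 and 618. Depth limits what can be said of Il15 and Il21.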
